A study of Mus musculus with 12 samples.

Results

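Hox genes encode homeodomain transcription factors that tell cells where they lie along the body axis. In mammals they sit in clusters A, B, C and D, and genes at the anterior end of a cluster are switched on earlier and nearer the head than genes at the posterior end. Polycomb proteins hold the clusters silent, trithorax proteins hold them active, and Hox proteins bind DNA together with cofactors of the PBX and MEIS families. Primordial germ cells (PGCs), the embryonic founders of sperm and eggs, are known in the mouse for shutting off Hox genes under the repressor Blimp1 (also called Prdm1), while neighbouring mesoderm expresses them.

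The Hox cluster genes described here are the 39 of 26218 gene rows whose symbol is Hox followed by a letter from a to d and a paralogue number. Paralogue groups 1 to 4 were taken as anterior (12 genes), 5 to 8 as middle (11 genes) and 9 to 13 as posterior (16 genes). All 39 were matched to the RefSeq annotation of the mm10 build. Cluster A (11 genes) lies on chromosome 6, where its posterior end is at 52260880, and is read from the minus strand. The other clusters are read from the plus strand: cluster B (10 genes) spans 96194316 to 96368254 on chromosome 11, cluster C (9 genes) spans 102921131 to 103036856 on chromosome 15, and cluster D (9 genes) spans 74668225 to 74765142 on chromosome 2.

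The study compared cultured and embryonic mouse germ cells in 12 libraries of 3′-end RNA sequencing, 2 in each of 6 groups. The cultured groups are PGC-like cells (PGCLCs), made from embryonic stem cells by way of epiblast-like cells with BMP4, LIF, SCF and EGF, sorted at day 4 of induction and then grown on m220 feeder cells for 3, 5 or 7 days (d4c3, d4c5 and d4c7). They are of strain C57BL/6, carry the reporters Blimp1-mVenus and Stella-ECFP (BVSC), and were sorted again after culture, by BV fluorescence in the protocol and as BVSC+ in the sample labels. The feeder layer was mainly m220-5, a subline grown from a single cell. The embryonic groups are female and male germ cells of E12.5 (E, embryonic day), when they have reached the gonad, and E9.5 PGCs, which are still migrating. All embryonic cells are labelled as ICR:C57BL/6=1:1, carry the Stella-EGFP reporter and were sorted by its fluorescence. The labels give 10 ng of RNA per PGCLC library and 1 ng per embryonic library, so culture and embryo cannot be told apart from strain, reporter, sort and RNA input. Separate cultures or animals are not stated for the replicates, and p-values therefore measure only the spread between these samples.

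Values are RPM, reads of a gene scaled to the library's total. They are 3′-end reads, whose number does not grow with transcript length, and were not divided by length. Estimated depth was 2219175 to 5817990 reads in genes per library. A gene listed at 0 had no read, but its expected level may still have been up to 3 reads, equal to 0.517 to 1.36 RPM in these libraries. These limits and the intervals given with ratios cover counting error only. Summed RPM of 10 germ cell markers was 2629 to 7660 outside E9.5, against 3615 and 3590 at E9.5, and Dppa3 (Stella) and Prdm1 had values in all 12 libraries. The E9.5 libraries also held RNA of some other cells. Summed RPM of 5 globin genes was 0 to 18.4 in the 10 other libraries, against 4565 and 4035 at E9.5. Among paraxial and lateral mesoderm markers, which mark the tissue PGCs migrate through, 8 of 9 had a row and their summed RPM was 1.56 to 13.1 elsewhere, against 72.1 and 71.7 at E9.5. Meox1, a somite gene, had at most 1.03 RPM elsewhere, against 33.8 and 36.8 RPM at E9.5. Of 5 tested mesoderm markers, 5 were called lower in males, 4 in females and 5 in d4c7 against E9.5. Summed RPM of 14 stromal markers was 156 to 431 elsewhere, against 546 and 516 at E9.5, and every one of 6 tested blood markers was called lower in both sexes and in d4c7. Of 10 tested stromal markers, 7 were called lower than E9.5 in males, 8 in females and 7 in d4c7, and 0 higher. Lower calls over all genes made up 17.6%, 17.1% and 13.8% in these groups. Of the tested markers, 4 of mesoderm, 5 of blood and 5 of stroma passed the filter only through E9.5 and had to be lower elsewhere. The sums of the endothelium, endoderm and neural lists at E9.5 lay within the range of the other libraries. Summed RPM was 59.7 to 154 elsewhere, against 85.4 to 88.6 at E9.5, for endothelium, 127 to 236 against 180 to 209 for endoderm, and 46.7 to 121 against 47.8 to 60.2 for neural markers. Of 4 tested endoderm markers, 3 were called lower than E9.5 in males, 2 in females and 3 in d4c7, with 1 higher in d4c7. Of these 4, 2 passed the filter only through E9.5. Gonadal somatic markers had a higher sum at E9.5 (15.1 to 23.2 RPM) than elsewhere (1.72 to 9.07 RPM). The part of these cells in the differences from E9.5 was not tested, for Hox genes or for any other gene below. In bulk samples fewer cells of a type and less RNA per cell cannot be told apart.

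Hox RNA was high at E9.5 and low in every other group, with Hoxa10 in E12.5 males as an exception described further on. Summed over the 39 genes it was 2.15 and 3.58 RPM in d4c3, 8.03 and 2.78 RPM in d4c5, 5.92 and 0.898 RPM in d4c7, 5.81 and 4.68 RPM in E12.5 females and 12.97 and 17.8 RPM in E12.5 males, against 210.3 and 221.8 RPM at E9.5. The lower E9.5 library was thus more than 10 times above every other library. As a share of the E9.5 level, pooled over the libraries of a group, Hox RNA was 1.34% in d4c3, 2.60% in d4c5, 1.10% in d4c7, 2.41% in females and 7.06% in males. The 95% counting interval was 1.69% to 3.32% in females and 5.71% to 8.65% in males, so the male share lay above the female one beyond counting error. Much of this rested on Hoxa10. Without it, a choice made after its values were seen, the shares were 1.94% (1.304% to 2.78%) in females and 3.03% (2.17% to 4.12%) in males, and the intervals overlap. Summed RPM without it was 3.69 and 4.43 in females and 5.16 and 7.53 in males, a difference that was not tested.

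**Figure D1:**
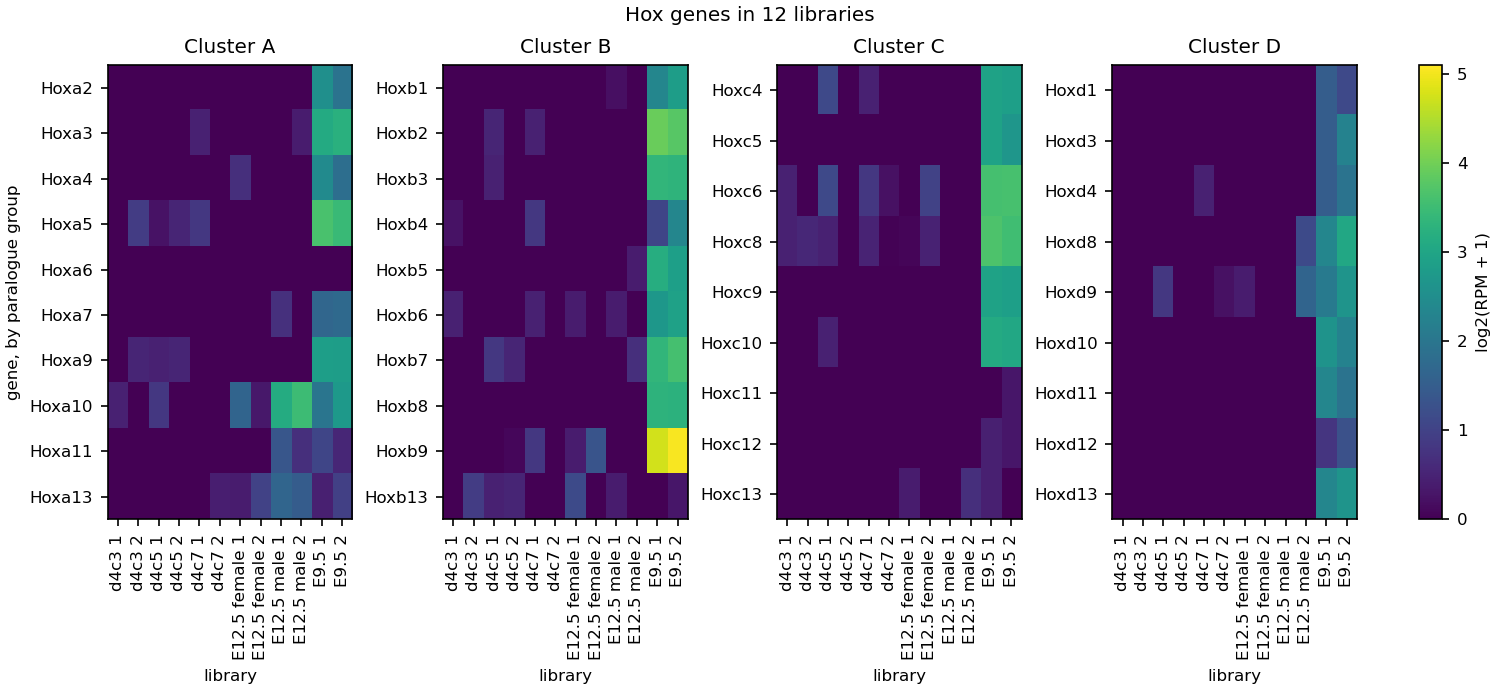
Expression of 38 Hox genes as log2(RPM + 1), by library (columns) and by paralogue group within each cluster (rows). The E9.5 columns are bright in all clusters, and outside them Hoxa10 in E12.5 males reaches 7.81 and 10.2 RPM.

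Gene by gene, both E9.5 libraries lay above all 10 other libraries for 32 of the 39 members, whereas 10.1% of the 19998 rows with any value did so. This held for 12 of 12 anterior, 10 of 11 middle and 10 of 16 posterior genes. By cluster it held for 7 of 11 genes in A, 9 of 10 in B, 7 of 9 in C and 9 of 9 in D. Hoxa6 was listed at 0 in all 12 libraries, and the other exceptions were the posterior genes Hoxa10, Hoxa11, Hoxa13, Hoxb13, Hoxc11 and Hoxc13. Outside E9.5, 13 members were listed at 0 throughout. Of the 390 member values outside E9.5, 79 were above 0 and 12 rested on more than 3 reads. At E9.5, 30 of 39 members had more than 3 reads in both libraries, against 2 in males and 0 in females and in each culture group.

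Anterior genes pattern the hindbrain and neck. At E9.5 their group means ran between 1.51 and 13.54 RPM with a median of 4.10 RPM. Hoxb2, a hindbrain gene, had 14.3 and 12.7 RPM at E9.5. Hoxb3 had 9.19 and 8.96 RPM and Hoxa3, needed for thymus and parathyroid formation, 7.72 and 8.49 RPM. Hoxc4 had 6.62 and 6.37 RPM. These 4 were the anterior genes with at least 5 RPM in both E9.5 libraries. Hoxb1, a most anterior paralogue, stood at 4.04 and 6.13 RPM. The lowest anterior gene was Hoxd1 with 1.84 and 1.18 RPM.

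Middle genes pattern the trunk, and at E9.5 their median was 7.23 RPM. Hoxc8, a gene of thoracic identity, had 11.8 and 10.6 RPM and Hoxc6 had 11.03 and 11.3 RPM. Hoxa5, which acts in the cervicothoracic region and the lung, had 11.4 and 9.91 RPM, and Hoxb7 had 9.19 and 11.1 RPM. The E9.5 values of these 4 genes overlap, so their order is not resolved. Hoxb8 had 8.82 and 8.73 RPM, Hoxb5 8.09 and 6.37 RPM, Hoxb6 5.51 and 6.60 RPM and Hoxc5 6.62 and 5.43 RPM. Hoxd8 had 4.04 and 7.31 RPM and Hoxa7 2.21 and 2.36 RPM.

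Posterior genes pattern the lumbar, sacral and tail regions, the limbs and the urogenital tract. Hoxb9 had 26.1 and 32.1 RPM, above every other member in both E9.5 libraries. Hoxc10 had 7.72 and 7.31 RPM, Hoxc9 6.62 and 6.37 RPM and Hoxa9 6.25 and 6.13 RPM. In cluster D, Hoxd9 had 3.31 and 5.19 RPM, Hoxd10 5.15 and 3.77 RPM, Hoxd11 4.04 and 2.83 RPM and Hoxd13, a gene of the digits and the tail end, 4.04 and 5.19 RPM. The last genes of the other clusters were near the detection limit, since Hoxa11, Hoxa13, Hoxb13, Hoxc11, Hoxc12 and Hoxc13 had at most 1.10 RPM in either E9.5 library. The posterior median was 3.84 RPM. By cluster the median was 3.80 RPM in A, 8.002 RPM in B, 6.49 RPM in C and 3.44 RPM in D.

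**Figure D2:**
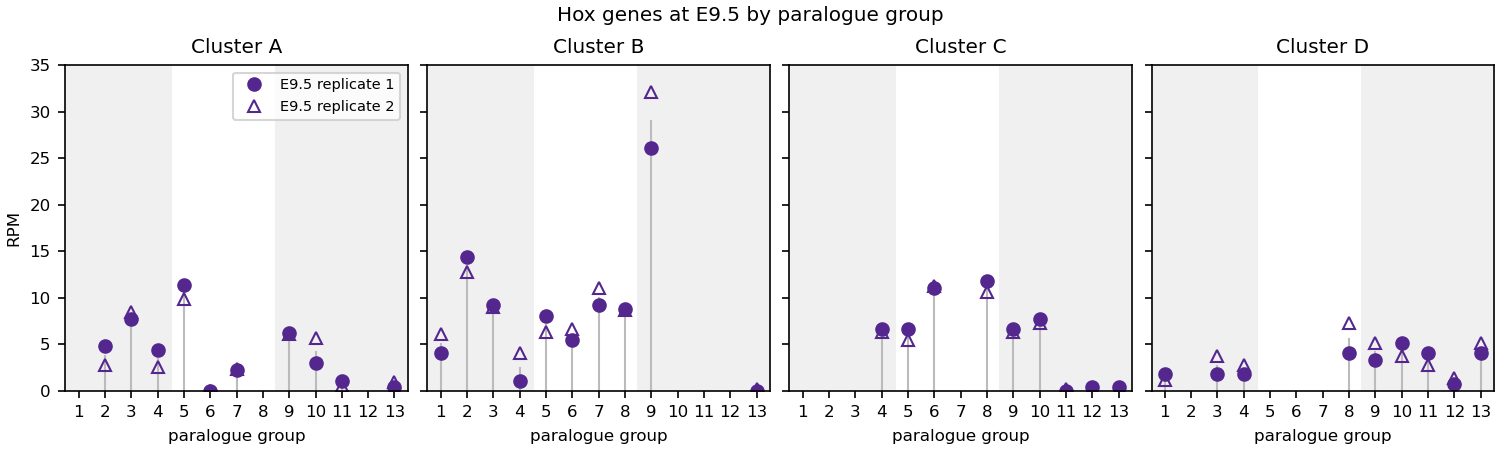
RPM of 38 Hox genes in the 2 E9.5 libraries, by paralogue group and cluster, with anterior and posterior groups shaded. Hoxb9 is the highest point with 26.1 and 32.1 RPM, and the terminal genes of clusters A, B and C lie near 0 while Hoxd13 has 4.04 and 5.19 RPM.

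Anterior and middle genes were near the detection limit in every group but E9.5. Summed RPM of the anterior genes was 0.587 and 0.887 in d4c3, 2.77 and 0.904 in d4c5, 2.75 and 0.172 in d4c7, 0.909 and 0.503 in females and 0.156 and 0.301 in males, against 62.5 and 64.0 at E9.5. The pooled share of the E9.5 level was 0.484% in males (95% counting interval 0.0584% to 1.76%) and 1.09% in females (0.351% to 2.55%). These intervals rest on 2 reads in males and 5 in females and overlap, so the order of the sexes is not resolved. For the middle genes summed RPM was 1.17 and 1.36 in d4c3, 2.53 and 0.904 in d4c5, 2.39 and 0.200 in d4c7, 0.354 and 1.41 in females and 0.938 and 2.11 in males, against 78.7 and 79.7 at E9.5. Every library outside E9.5 thus stood below 3 RPM in both classes.

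Posterior genes kept a larger share of their E9.5 level than anterior genes did in E12.5 males, where Hoxa10 gave most of the posterior RNA. Their summed RPM was 0.391 and 1.33 in d4c3, 2.73 and 0.968 in d4c5, 0.785 and 0.526 in d4c7, 4.55 and 2.77 in females and 11.9 and 15.4 in males, against 69.1 and 78.1 at E9.5. The male share of the E9.5 level was 18.3% (95% counting interval 14.5% to 23.0%), the female share 4.79% (3.10% to 7.11%) and the d4c7 share 0.803% (0.260% to 1.89%). Posterior genes made up 78.3% and 59.1% of Hox RPM in females and 91.6% and 86.4% in males, against 32.9% and 35.2% at E9.5. Hoxa10 was 46.7% and 9.09% of posterior RPM in females and 65.8% and 66.7% in males, against 4.26% and 7.25% at E9.5. With it left out, posterior RPM was 2.43 and 2.51 in females and 4.06 and 5.12 in males, against 66.2 and 72.4 at E9.5, and the share of the E9.5 level was 3.54% (2.08% to 5.65%) in females and 6.58% (4.39% to 9.51%) in males. These intervals overlap, while both male libraries lay above both female ones. Overlap of intervals against E9.5 is not a test between the sexes, and the difference without Hoxa10 was not tested.

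**Figure D3:**
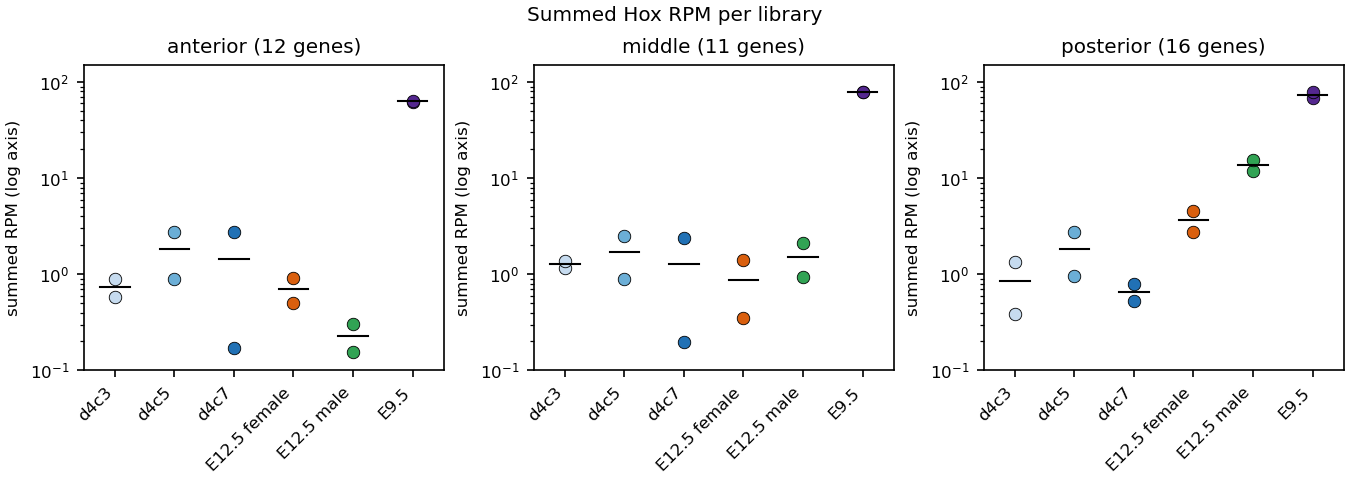
Summed RPM (log axis) of anterior, middle and posterior Hox genes in each library (points), with the group mean as a bar. All groups lie below E9.5 in every class, and in the posterior class E12.5 males reach 11.9 and 15.4 RPM.

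Each of these groups was tested against E9.5 with limma on log2(RPM + 1), with Benjamini-Hochberg adjustment over all genes tested and a call at an adjusted p under 0.05. Genes with at least 5 RPM in at least 2 libraries entered, which kept 17 members: Hoxa3, Hoxa5, Hoxa9, Hoxa10, 7 of cluster B, 6 of cluster C and 0 of cluster D. All of them but Hoxa10 passed only through E9.5, where they are high, so their calls were bound to be lower and nothing is read from the count. Called lower than E9.5 were 17 members in d4c3, 17 in d4c5, 17 in d4c7, 17 in females and 16 in males, where lower calls over all 10856 genes made up 10.3%, 14.3%, 13.8%, 17.1% and 17.6%. These contrasts share the same E9.5 libraries and are not independent. In each, 0 members were called higher by limma, also at an unadjusted p under 0.05, and the share of higher calls over all genes was 13.4%, 18.2%, 18.1%, 20.4% and 20%. For all members but Hoxa10 the filter fixed this outcome as well, so nothing is read from it. With no filter on low values 38 members were tested, and 34 were called lower in each culture group, 33 in females and 31 in males. Called higher were 0 in each group but males, next to 6.4%, 9.08%, 9.57% and 10.4% of all genes in d4c3, d4c5, d4c7 and females (0 at an unadjusted p under 0.05). The background of lower calls was then 8.2%, 10.1% and 9.8% in d4c3, d4c5 and d4c7, 11.2% in females and 12.2% in males.

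Some members that are high at E9.5 are given for the size of the difference, a choice that favours lower values elsewhere. Hoxb9 was 0 and 0 RPM in d4c3, 0 and 0.0645 RPM in d4c5, 0.785 and 0.00862 RPM in d4c7, 0.303 and 1.51 RPM in females and 0 and 0 RPM in males, against 26.1 and 32.1 RPM at E9.5. Every other library lay far below both E9.5 libraries. By limma with no filter, the change of Hoxb9 against E9.5 was −4.48 ± 0.36 (SE, log2) in d4c7 (adjusted p = 8.80e-05), −4.05 in females and −4.90 in males (adjusted p = 0.000171 and 5.29e-05). These values are favoured by the choice of the highest member at E9.5. Set against 3 reads per library, Hoxb9 was at least 23.2-fold lower in d4c3 and at least 31.6-fold lower in males. Hoxb2 was at 0 RPM in both sexes and in d4c3, at least 16.3-fold below E9.5 in females and at least 14.7-fold below in males. Hoxb8 was at 0 in all 10 libraries outside E9.5, a level at least 10.5-fold lower in females and at least 10.4-fold lower in d4c7. The fitted changes of such genes depend on the pseudocount and are not bounds.

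The other tested members but Hoxa10 were likewise low outside E9.5. They passed the filter only through E9.5, so this was built in and only the size of the difference is described. Against E9.5, the fitted log2 changes in the 5 groups of Hoxa3, Hoxa5, Hoxa9, Hoxb3, Hoxb5, Hoxb6, Hoxb7, Hoxc4, Hoxc5, Hoxc6, Hoxc8, Hoxc9 and Hoxc10 lay between −3.61 (Hoxc6 and Hoxc8 in males) and −2.34 (Hoxa9 in d4c5). Hoxc6 and Hoxc8 were at 0 in both male libraries, so the −3.61 depends on the pseudocount. Their highest value outside E9.5 was 1.17 RPM, reached by Hoxc4 and Hoxc6 in d4c5 replicate 1. Hoxc5 and Hoxc9 were listed at 0 in all 10 libraries outside E9.5. Among members that were not tested, values of at least 1 RPM outside E9.5 were limited to Hoxa11 and Hoxa13 (described next), Hoxb13 with 1.21 RPM in female replicate 1, and Hoxd8 and Hoxd9 with 1.20 and 2.11 RPM in male replicate 2. Those 2 cluster D genes were at 0 in male replicate 1, so their values rest on a single library.

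Hoxa10 was highest in E12.5 males. This gene, needed for uterine development, testicular descent and lumbar identity, lies near the posterior end of cluster A, from 52231197 to 52240854 on chromosome 6 (mm10, NCBI gene 15395). It had 0 and 0 RPM in d4c7, 2.12 and 0.251 RPM in females and 7.81 and 10.2 RPM in males, against 2.94 and 5.66 RPM at E9.5. Males were above females and above E9.5 in every pair of libraries. Females minus males, the change was −2.33 ± 0.48 (SE, log2, limma adjusted p = 0.00665), where lower calls over all genes made up 5.27%. It reached the filter of 5 RPM only with the male libraries, where it is high, which favoured this call. With no filter its adjusted p was 0.0302. It was the 1 member of 17 called lower, with 0 called higher (0 at an unadjusted p under 0.05, and 6.68% of all genes called higher). Without male replicate 2 its adjusted p was 0.0649, and without female replicate 2 it was 0.0882. Pooled reads put the female level at 0.122 of the male one (95% counting interval 0.0502 to 0.256). An exact permutation test of 2 libraries against 2 cannot go below p = 0.333.

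Against E9.5 the sexes lay on different sides for Hoxa10. Males were higher by 0.96 ± 0.48 (log2, adjusted p = 0.135), which is not a call. With a pseudocount of 5 RPM the adjusted p was 0.0258, and with only the libraries compared it was 0.0343. The pooled ratio of male to E9.5 reads was 1.97 (95% counting interval 1.26 to 3.13). Females fell by 1.37 (adjusted p = 0.0377), a call lost at a pseudocount of 0.5 RPM (adjusted p = 0.0570), with no filter (0.0785), without E9.5 replicate 2 (0.242) and without female replicate 2 (0.340). In culture Hoxa10 had 0.391 and 0 RPM in d4c3 and 0.779 and 0 RPM in d4c5. The change of d4c7 was −3.32 against males (adjusted p = 0.000163), the 1 member called there, where 17.6% of all genes were called lower. The filter favoured this call too, and with no filter its adjusted p was 0.0025. It was −2.36 against E9.5 (adjusted p = 0.00197). The d4c3 and d4c5 calls against E9.5 were lost without E9.5 replicate 2 (adjusted p = 0.0754 and 0.0832), without d4c3 replicate 2 (0.0548) and without d4c5 replicate 2 (0.0626).

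The neighbouring posterior genes of cluster A were much lower than Hoxa10, and both had RNA in each male library. Hoxa13, the terminal gene and a factor of the digits and genital tubercle, had 0 and 0.345 RPM in d4c7, 0.303 and 1.01 RPM in females and 2.19 and 1.81 RPM in males, against 0.368 and 0.944 RPM at E9.5. Both male libraries were above all others. With no filter its change in males was 0.88 ± 0.25 against E9.5 (log2, adjusted p = 0.0369), the 1 member called higher (10.5% of all genes), and that in females minus males was −0.89 (adjusted p = 0.0879). Hoxa11, a factor of the forelimb and uterus, had 0 and 0 RPM in d4c7 and in females and 1.56 and 0.602 RPM in males, against 1.10 and 0.472 RPM at E9.5. With no filter it was called lower in females than in males (−1.02, adjusted p = 0.0359), where 2.4% of all genes were called lower and 2.96% higher, with 0 members called higher (1 at an unadjusted p under 0.05). Against males, d4c7 had Hoxa10, Hoxa11 and Hoxa13 called lower with no filter, next to 8.45% of all genes. Over both male libraries Hoxa13 rests on 13 reads and Hoxa11 on 7. Males and E9.5 overlap for Hoxa11. Hoxa11 overlaps the antisense row Hoxa11as, which had 0 RPM in d4c7 and in females and 0 and 1.51 RPM in males, against 2.94 and 5.19 RPM at E9.5. Whether counting used strand is not given in the sources used here, so the pair cannot be told apart with certainty. Hoxa9, the next gene toward the anterior end, was 0 in both sexes and in d4c7, against 6.25 and 6.13 RPM at E9.5. In males RNA was thus listed for Hoxa13, Hoxa11 and Hoxa10, which are neighbours, and was at 0 for Hoxa9. Against E9.5, the male counting interval lay above 1 for Hoxa10 but included 1 for Hoxa11 and Hoxa13.

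The starts of these neighbours are shown because the male values change between Hoxa10 and Hoxa9. Each run is the 250 bases before an annotated start in RefSeq (build GRCm38.p6, minus strand, 5′ to 3′), from the posterior end inward, with CpG dinucleotides, the targets of DNA methylation, in capitals. They hold 35 CpGs for Hoxa13, 13 for Hoxa11, 7 and 20 for the 2 starts of Hoxa10, and 3 for Hoxa9.
Hoxa13, chr6:52260881-52261130: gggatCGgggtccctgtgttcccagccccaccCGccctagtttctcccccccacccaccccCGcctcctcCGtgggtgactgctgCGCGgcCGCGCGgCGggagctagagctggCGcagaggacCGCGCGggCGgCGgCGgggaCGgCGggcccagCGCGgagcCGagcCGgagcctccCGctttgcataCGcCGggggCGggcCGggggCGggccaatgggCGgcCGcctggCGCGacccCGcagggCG
Hoxa11, chr6:52245811-52246060: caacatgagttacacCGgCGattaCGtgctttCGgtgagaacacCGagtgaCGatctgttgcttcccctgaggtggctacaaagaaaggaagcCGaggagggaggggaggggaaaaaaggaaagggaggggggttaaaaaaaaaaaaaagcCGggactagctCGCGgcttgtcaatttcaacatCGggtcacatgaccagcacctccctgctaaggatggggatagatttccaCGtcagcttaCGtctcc
Hoxa10 first start, chr6:52240855-52241104: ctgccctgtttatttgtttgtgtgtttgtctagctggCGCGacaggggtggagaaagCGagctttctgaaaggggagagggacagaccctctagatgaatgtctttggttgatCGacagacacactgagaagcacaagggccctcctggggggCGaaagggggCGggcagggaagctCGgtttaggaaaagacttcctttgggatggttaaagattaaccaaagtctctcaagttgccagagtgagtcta
Hoxa10 second start, chr6:52234940-52235189: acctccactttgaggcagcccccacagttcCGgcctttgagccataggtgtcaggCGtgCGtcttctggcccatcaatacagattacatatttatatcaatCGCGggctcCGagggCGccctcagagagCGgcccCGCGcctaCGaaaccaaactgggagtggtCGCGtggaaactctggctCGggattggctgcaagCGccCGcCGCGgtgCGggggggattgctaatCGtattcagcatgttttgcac
Hoxa9, chr6:52227371-52227620: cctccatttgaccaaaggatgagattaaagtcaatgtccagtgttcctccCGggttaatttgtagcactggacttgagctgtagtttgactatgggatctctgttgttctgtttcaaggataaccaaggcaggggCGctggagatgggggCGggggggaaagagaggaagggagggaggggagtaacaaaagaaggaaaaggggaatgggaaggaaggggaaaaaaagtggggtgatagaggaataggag
The 24 windows found for 22 of the 39 members held 2 to 35 CpGs, and 62.5% held at least 10, as did 37.8% of all 32851 windows of the table. TTTATG, a form of the CDX and posterior HOX motif, was in 20.8% of the Hox windows and 10.8% of all windows on either strand. TATAAA was in 16.7% and 12.4%. The retinoic acid response element made of a direct repeat of AGGTCA with 5 bases between was in 0 of the 24 Hox windows and in 3 of all windows. Of the runs shown, the second start of Hoxa10 holds TATAAA and none holds TTTATG. These matches describe letters only.

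**Figure D4:**
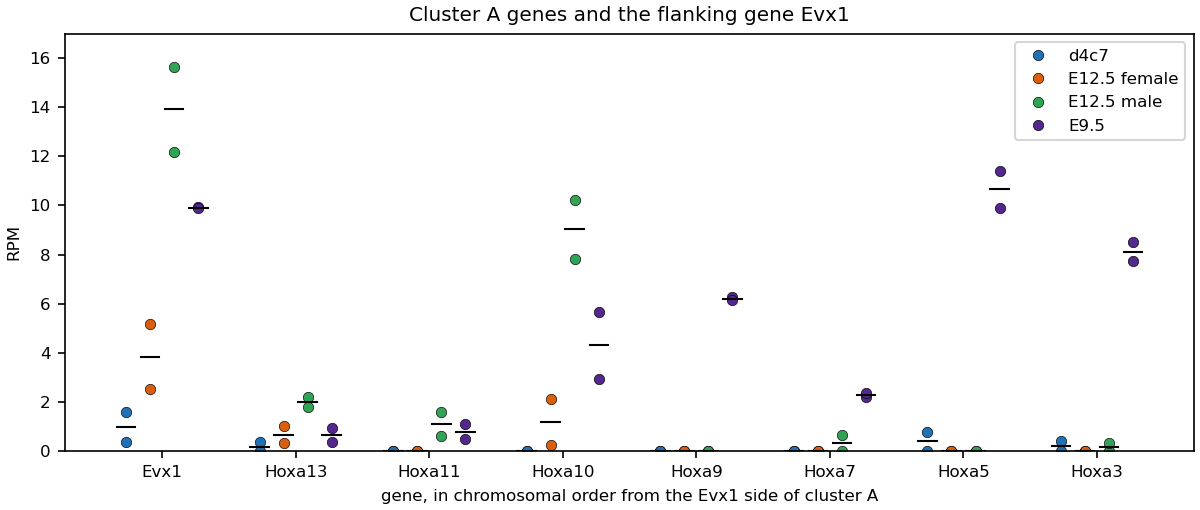
RPM of 7 cluster A genes and of Evx1 in each library (points) of d4c7, E12.5 females, E12.5 males and E9.5, with group means as bars, ordered from the Evx1 side. Male points stand above E9.5 for Evx1, Hoxa13 and Hoxa10, and from Hoxa9 onward E9.5 is above all other groups shown.

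Beyond Hoxa13 lies Evx1, a homeobox gene of the posterior primitive streak. It had 1.57 and 0.345 RPM in d4c7, 5.15 and 2.51 RPM in females and 12.2 and 15.7 RPM in males, against 9.93 and 9.91 RPM at E9.5. Males were above E9.5, females below it and d4c7 lowest, without overlap. Females minus males, the change was −1.67 ± 0.42 (log2, adjusted p = 0.0195), and this call was lost without either male replicate (adjusted p = 0.0708 and 0.139), without female replicate 2 (0.176) and with no filter (0.0761). Males against E9.5 were not called (0.44, adjusted p = 0.440). In d4c7 Evx1 fell by 2.55 (adjusted p = 0.000385), and in females by 1.23 (adjusted p = 0.0339), a call lost without either E9.5 replicate (0.127 and 0.128) and without female replicate 2 (0.248). Evx2, its counterpart beside Hoxd13, was at 0 outside E9.5, against 1.10 and 0.236 RPM at E9.5. Of 9 tested flanking genes, 3 were called higher and 2 lower in d4c7, 1 and 2 in females and 1 and 1 in males against E9.5. Over all genes 18.1%, 20.4% and 20% were called higher and 13.8%, 17.1% and 17.6% lower, so 1 or 2 of 9 is near the background. Their medians were 0.02, 0.17 and −0.05, next to 0.04, 0.04 and 0.05 over all genes. Snx10, on the far side of cluster A, rose by 2.22 in d4c7 (adjusted p = 1.38e-05) and Ttll6, beside cluster B, by 2.67 (adjusted p = 0.000308), while Mtx2, beside cluster D, fell by 0.81 (adjusted p = 0.00084). Leaving out any of the 4 libraries compared put the lower calls in females at 0 to 1 and the higher calls in males at 0. The lower call in males, Cbx5 (−0.40, adjusted p = 0.0116), was lost without E9.5 replicate 1 (0.0995) and without male replicate 1 (0.0773).

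Markers of gonadal somatic cells, which surround germ cells at E12.5, are given beside the male values. Summed over 9 genes they were 1.72 to 3.14 RPM in d4c7, 3.03 to 4.27 RPM in females and 6.62 to 9.07 RPM in males, against 15.1 to 23.2 RPM at E9.5. Only part of the list is given singly. Amh and Inhba were at 0 in both sexes. Foxl2 had 0 and 0.251 RPM in females and 0.313 and 0 RPM in males. Nr5a1 had 0.606 and 0 RPM in females and 0.625 and 0.301 RPM in males. Sox9 had 0 and 0 RPM in females and 1.25 and 1.81 RPM in males, against 9.56 and 5.43 RPM at E9.5. Sox9, the 1 tested gene of the list, was called lower in females than in males (−1.33, log2), where 5.27% of all genes were called lower. The sums also hold Wt1, Gata4, Fst and Lhx9, whose values are not given singly. These genes make up most of the sum in both sexes, so the low values of the named genes do not stand for the list. The part of gonadal somatic cells in the Hoxa10 difference between the sexes was not tested.

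Over culture no change of a Hox gene was detectable at this depth. In d4c7 minus d4c3 limma called 0 members higher and 0 lower, also at an unadjusted p under 0.05 and with no filter, where 1.67% and 1.08% of all genes were called with the filter, and 0.315% and 0.2% without it. In d4c7 against females 0 members were called in either direction (also at an unadjusted p under 0.05), next to 19.8% and 19% of all genes, and leaving out female replicate 2 gave 1 lower. No member had more than 3 reads in any of the 6 PGCLC libraries. Among members with at least 5 RPM in both E9.5 libraries, Hoxb5, Hoxb8, Hoxc5 and Hoxc9 were at 0 in all 6. The PGCLC libraries with the highest Hox sums, d4c5 replicate 1 (8.03 RPM) and d4c7 replicate 1 (5.92 RPM), were also those with the most RNA of the stromal genes Col3a1 and Dcn, which were singled out after their values were seen. Col3a1 had 39.7 RPM in d4c5 replicate 1 and 9.42 RPM in d4c7 replicate 1, against at most 4.69 RPM in the other 4. Dcn had 39.7 and 7.46 RPM, against at most 4.14 RPM in the other 4. Summed over all 14 stromal markers these 2 libraries were the lowest of the 6, and Fn1 in them had 171 and 113 RPM, against 308 RPM or more in the other 4. Both are replicate 1, and same-numbered libraries of d4c5 and d4c7 deviated together over all genes (correlation of their deviations from the group means 0.455). The part of stromal RNA in these sums was not tested.

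Genes that work with or above the Hox clusters were read from lists. They are set against the same E9.5 libraries, and the part of other cells in these differences was not tested. Against the counts below, the share of all tested genes called higher than E9.5 was 18.1% in d4c7, 20.4% in females and 20% in males, and the share called lower was 13.8%, 17.1% and 17.6%. Of the PBX and MEIS cofactors, 8 were tested. Called higher and lower were 0 and 5 in d4c7, 0 and 5 in females and 1 and 6 in males against E9.5, with medians of −0.96, −1.19 and −1.94, next to 0.04, 0.04 and 0.05 over all genes. Meis1, Meis2, Meis3 and Pknox2 passed the filter only through E9.5, where they are high, so nothing is read from the count of lower calls. Lower calls numbered 3 in d4c7 without d4c7 replicate 1 or E9.5 replicate 1, and 3 in females without female replicate 2 or E9.5 replicate 2. The Meis genes, which help Hox proteins to bind DNA, fell in all 3 groups. Meis1 had 1.18 and 2.24 RPM in d4c7, 3.33 and 0.503 RPM in females and 0.625 and 0 RPM in males, against 12.1 and 14.7 RPM at E9.5. Meis2 had 0.785 and 0.862 RPM in d4c7, 3.94 and 3.27 RPM in females and 4.38 and 0.602 RPM in males, against 22.8 and 36.8 RPM at E9.5. No other library overlapped E9.5 in either gene. By limma with no filter the changes in males were −3.49 for Meis1, −3.35 for Meis2 and −3.30 for Meis3 (adjusted p = 0.00153, 0.00249 and 0.000333). In d4c7 they were −2.43, −4.04 and −2.84, and in females −2.49, −2.71 and −1.44. The female call for Meis3 (adjusted p = 0.0099) was lost without E9.5 replicate 2 (0.0506) and without female replicate 2 (0.0618).

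The cofactors did not all move together. Pknox2 had 5.105 and 4.998 RPM in d4c7, 0 RPM in females and 0.625 and 0 RPM in males, against 6.99 and 8.49 RPM at E9.5. It was called lower in both sexes and not in d4c7 (−0.52, adjusted p = 0.299). Pknox2 passed the filter only through E9.5, which favoured the lower calls. Pbx3 was not called in any of these groups. Pbx2 fell by 1.11 in males (adjusted p = 0.00137), and its call in d4c7 (−0.63, adjusted p = 0.0419) was lost without d4c7 replicate 1 (0.283). Pknox1, called higher in males (0.76, adjusted p = 0.0187), was lost without male replicate 2 (0.194) and without either E9.5 replicate (0.121 and 0.0578). Meis3 had 3.94 and 3.27 RPM in females and 0 and 0.602 RPM in males, and females minus males the change was 1.86 (adjusted p = 0.00684, and 0.0755 without male replicate 1 and 0.0574 without female replicate 1).

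**Figure D5:**
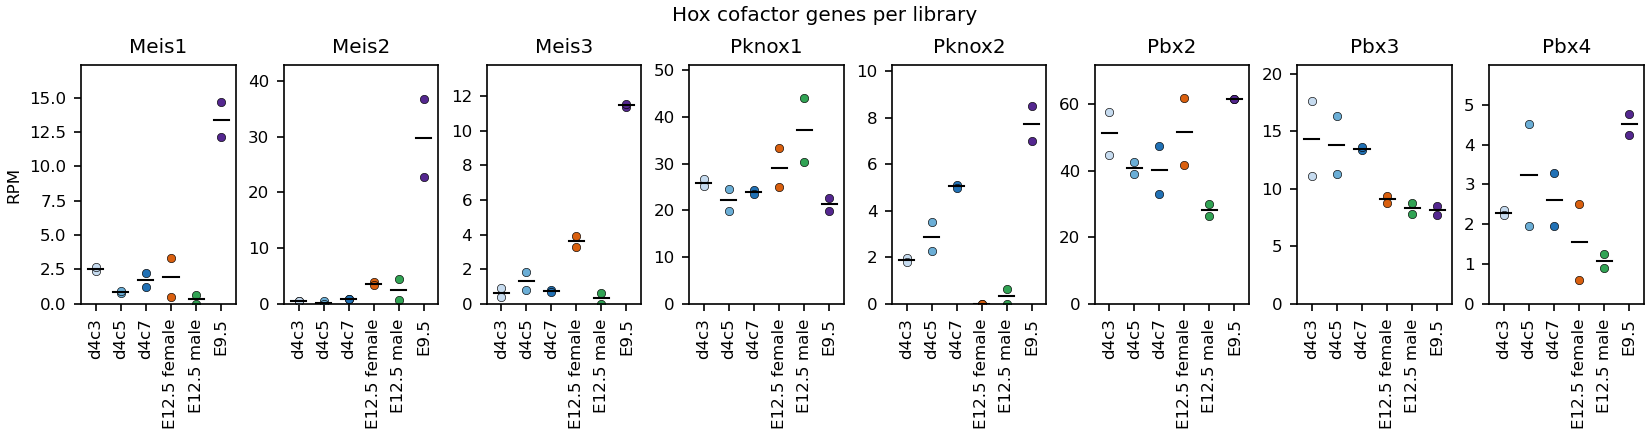
RPM of 8 genes for PBX and MEIS cofactors in each library (points), with group means as bars and an axis of its own per gene. Meis1, Meis2 and Meis3 lie above all other groups at E9.5, and Pbx3 does not.

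Among caudal and axial genes that act upstream of the clusters, 4 were tested. Called higher and lower were 0 and 3 in d4c7, 1 and 0 in females and 0 and 3 in males, with medians of −2.20, 0.37 and −1.90 (−1.62 in males with a gene at 0 put at its bound), against background shares of 18.1%, 20.4% and 20% higher and 13.8%, 17.1% and 17.6% lower. Cdx2, which activates trunk Hox genes, had 0.393 and 0.517 RPM in d4c7, 6.97 and 3.77 RPM in females and 0 and 0 RPM in males, against 5.51 and 6.13 RPM at E9.5. Cdx2 is also among the tested endoderm markers. It passed the filter only through E9.5. With no filter it fell in d4c7 (−2.23, limma adjusted p = 0.00183) and males (−2.77, adjusted p = 0.000562), and its change in females was −0.14 (adjusted p = 0.848). Female and E9.5 libraries overlapped for Cdx2, and males had none. T, the brachyury gene of the primitive streak, had 0 and 0.172 RPM in d4c7, 0.909 and 0.754 RPM in females and 4.06 and 2.71 RPM in males, against 3.31 and 4.72 RPM at E9.5, and was not tested. Nr6a1, known in the mouse trunk as a regulator of Hox timing, had 69.1 and 97.7 RPM in d4c7, 155 and 175 RPM in females and 14.4 and 19.6 RPM in males, against 96.7 and 86.8 RPM at E9.5. Females were above E9.5 (0.84, adjusted p = 0.00338) and males below it (−2.38, adjusted p = 7.66e-07). Cdx1 fell by 2.39 and Gbx2, a hindbrain patterning gene, by 2.17 in d4c7 (adjusted p = 0.000407 and 0.000672). The male call for Gbx2 (−1.42, adjusted p = 0.0103) was lost without male replicate 1 (0.0719) and without either E9.5 replicate (0.0502 and 0.0718). With no filter the lower calls among 11 genes were 8 in d4c7, 4 in females and 7 in males, where 9.8%, 11.2% and 12.2% of all genes were called lower.

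Retinoic acid is a known inducer of anterior Hox genes. Of 13 tested genes of its pathway, 1 was called higher and 6 lower in d4c7, 0 and 5 in females and 3 and 6 in males, with medians of −0.81, −1.04 and −1.84 (−0.94 in males with a gene at 0 put at its bound). The 3 higher calls in males are near the background of 20%, and lower calls over all genes made up 13.8%, 17.1% and 17.6%. Stra6 and Rarb passed the filter only through E9.5, which favoured their lower calls against it. Aldh1a1 passed only through males, which favoured its higher call there. Crabp2, a carrier of retinoic acid, had 4.32 and 7.24 RPM in d4c7, 12.1 and 15.3 RPM in females and 1.88 and 4.21 RPM in males, against 110 and 122 RPM at E9.5. Its changes were −4.14, −2.99 and −4.91, and all 3 groups lay far below E9.5. Stra6, a retinol importer, fell by 2.80, 2.58 and 2.85, and Aldh1a2, which makes retinoic acid, by 1.95, 2.29 and 2.18 in d4c7, females and males. Rarb, a receptor gene induced by retinoic acid, had 0 and 2.07 RPM in d4c7, 1.82 and 3.52 RPM in females and 0 and 0.301 RPM in males, against 5.88 and 6.84 RPM at E9.5. It was called lower in males (−2.69, adjusted p = 0.000703) and in d4c7 (−2.07, adjusted p = 0.00487, and 0.0722 without d4c7 replicate 1). Cyp26a1, which degrades retinoic acid, had 22.0 and 10.5 RPM in d4c7, 0.909 and 0.251 RPM in females and 0 RPM in males, against 1.84 and 3.54 RPM at E9.5. It was called higher in d4c7 (2.18, limma adjusted p = 0.0292), and this was lost without d4c7 replicate 1 (0.151) and without either E9.5 replicate (0.195 and 0.0789). Aldh1a1 rose in males (2.91, adjusted p = 0.00165 with no filter), while the male calls for Rara (1.37) and Rxrb (0.76) were lost without E9.5 replicate 1 (adjusted p = 0.217 and 0.0869) or without male replicate 1 (0.0731 and 0.105) or 2 (0.12 and 0.0781).

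Most genes of the machinery that keeps Hox clusters silent had RNA in all groups. Of 20 tested Polycomb genes, 7 were called higher and 1 lower in d4c7, 6 and 2 in females and 5 and 5 in males, with medians of 0.36, 0.14 and −0.11. Over all genes 18.1%, 20.4% and 20% were called higher and 13.8%, 17.1% and 17.6% lower, so the lower calls in females and the higher and lower calls in males are near the background. Higher calls numbered 3 in d4c7 and 2 in males without E9.5 replicate 2, 3 in males without E9.5 replicate 1 or male replicate 2, and 3 in females without female replicate 1. Lower calls numbered 3 in d4c7 without d4c7 replicate 2 and 3 in males without male replicate 2, and 0 in females without either E9.5 replicate or without female replicate 1. Ezh2, the main H3K27 methyltransferase, had 264 and 199 RPM in d4c7, 176 and 179 RPM in females and 158 and 148 RPM in males, against 229 and 245 RPM at E9.5. It fell by 0.63 in males (adjusted p = 0.00182). Its change in d4c7 was −0.05 (adjusted p = 0.816), and its call in females (−0.41, adjusted p = 0.0231) was lost without any of the 4 libraries compared (up to 0.144). Kdm2b, which brings Polycomb to CpG islands, had 106 and 81.9 RPM in d4c7, 146 and 142 RPM in females and 106 and 118 RPM in males, against 43.4 and 48.8 RPM at E9.5. It was above E9.5 in every library of these groups, with changes of 1.00, 1.63 and 1.26. Phf19, an accessory Polycomb subunit, rose by 0.89 in d4c7 and fell by 1.57 in males. Cbx2, which reads H3K27 methylation, had 44.8 and 41.9 RPM in d4c7, 50.6 and 82.0 RPM in females and 51.3 and 44.9 RPM in males, against 89.7 and 77.8 RPM at E9.5. It fell by 0.93 in d4c7 (adjusted p = 0.00265), and its call in males (−0.79, adjusted p = 0.00682) was lost without E9.5 replicate 1 (0.0749) and without male replicate 2 (0.0635). Suz12 rose by 1.297 in d4c7, Bmi1 by 1.33 in females and Phc1 by 1.01 in males, and Phc2 fell by 1.86 in males. Of 6 tested trithorax-group and H3K27 demethylase genes, 4 were called higher in d4c7, 2 in females and 3 in males, and 0 were called lower, with medians of 0.44, 0.29 and 0.29, where 18.1%, 20.4% and 20% of all genes were called higher. Higher calls in d4c7 numbered 2 without E9.5 replicate 1 and 1 without E9.5 replicate 2, and 1 gene was called lower without d4c7 replicate 2. Ash2l rose by 0.65 in d4c7, 0.60 in females and 0.54 in males, and Wdr5 by 0.74 in females and 0.68 in males. Kmt2a and Kmt2b were not analysed here.

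Of 18 non-coding genes of the clusters, 7 had a row and 1 was tested. Mira, a transcript between Hoxa6 and Hoxa7 described in mouse embryonic stem cells as activating them, had 0 RPM in d4c7 and in females and 0.313 and 0.301 RPM in males, against 9.56 and 8.96 RPM at E9.5. It passed the filter only through E9.5. With no filter the change by limma was −2.97 in males (adjusted p = 1.02e-05). The microRNA rows Mir10a, Mir10b, Mir196a-2 and Mir615 were at 0 in all libraries. Among members, gene spans of the same strand overlap for Hoxa3 with Hoxa4, Hoxa5 and Hoxa6, Hoxb3 with Hoxb4, Hoxd3 with Hoxd4 and Hoxd10 with Hoxd11. The split within these pairs is uncertain. Apart from this, 7 member values were below 0.9 read, so reads may have been shared between rows. Most of these values belong to Hoxb1, Hoxb9 and Hoxc8, which overlap no other member, so they do not show sharing within the overlapping pairs.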

How the data were processed

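The deposited table holds RPM values per gene made by the authors. Per the submitters' processing notes the build is mm10, and TopHat 1.4.1, Cufflinks 2.2.0 and cutadapt 1.3 were used in a role that is not given in the sources used here. How many reads stood behind each value was estimated from the RPM steps. Only 80.2% to 85.8% of low values per library came out whole (within 0.1 read), so no count test was run. Values were fitted as log2(RPM + 1) in limma 3.58.1 (R 4.3.3) with 1 mean per group over all 12 libraries (6 residual and 8.02 prior degrees of freedom). Genes with at least 5 RPM in at least 2 libraries were tested (10856), with Benjamini-Hochberg adjustment and calls at an adjusted p under 0.05. The scripts were tested on simulated data. Folds against a group at 0 use 3 reads per library.

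Hox members were described, with other listed genes named where called (up to 4 per list and contrast by size), and Cdx2, T, Cyp26a1, Rarb, Meis1, Meis2, Kmt2a, Ezh2 and Cbx2 always. A few items named by this rule are not reported here, though counts and sums include them. Members and lists were chosen with earlier results of these data known. Col3a1, Dcn and Fn1 in culture were picked after their values were seen. Positions and promoters are from RefSeq (GRCm38.p6). The labels do not say that a replicate number marks a shared batch, so libraries were not treated as pairs. Alternatives were other pseudocounts and filters, centring on the median ratio, a replicate block, only the libraries compared, and leaving out each library.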

Additional observations from a re-analysis of the deposited data

Results flagged for a closer look

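For 1 of 17 tested Hox genes the change against E9.5 differed between females and males by limma. Over all genes 5.27% were called lower and 6.68% higher in females minus males, so this count is near the background. Hoxa10 averaged 1.19 RPM in females and 9.03 RPM in males (n = 2 each), a difference of −2.33 (log2). Its call was lost without male replicate 2 and without female replicate 2. It passed the filter only through males, and with no filter its adjusted p was 0.0302. Among listed genes that are not Hox genes, these differences held with each library left out in turn: Cdx2 (2.62), Nr6a1 (3.22) and Phf19 (1.87), all higher in females.

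The other 13 reported were lost when 1 library was left out. Higher in females were Gbx2 (1.45), Meis3 (1.86), Pbx2 (0.83), Ttll6 (1.47), Pcgf2 (0.76), Crabp1 (1.69), Crabp2 (1.92), Rarb (1.65), Rxra (1.34) and Kdm6a (0.72). Lower in females were Evx1 (−1.67), Phc1 (−0.65) and Aldh1a1 (−2.49). Aldh1a1 makes retinoic acid and averaged 0.606 RPM in females and 7.49 RPM in males. Its highest adjusted p was 0.0520, without female replicate 2.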

How the results depend on the processing

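Without a filter on low values, Hox genes called lower than E9.5 numbered 34 in d4c3, 34 in d4c5, 34 in d4c7, 33 in females and 31 in males. Over all genes 8.2%, 10.1%, 9.8%, 11.2% and 12.2% were called lower. At a filter of 1 RPM, Hox genes called lower numbered 31, 31, 31, 31 and 30, and the share over all genes was not computed. More members are tested in both settings. Most members reach 1 RPM in 2 libraries only with E9.5, which favours lower calls, so nothing is read from these filtered counts. Lower calls in females minus males were 2 without a filter, and those in d4c7 minus males were 3 without a filter and 3 at 1 RPM. Higher calls in males against E9.5 were 1 at a pseudocount of 5 RPM and with only the libraries compared (Hoxa10 in both). Without a filter there was also 1, but it was Hoxa13. The cause was not tested. Leaving out 1 library gave 16 to 17 lower calls in d4c3, d4c5 and females, 17 in d4c7 and 16 in males, 0 to 1 in females minus males and 0 to 1 in d4c7 minus females. It kept 82 of 86 calls of single Hox genes in every case. Leaving Hoxa10 out, chosen after its values were seen, put the mean posterior sum in males at 4.59 RPM. No result reversed under any alternative run. With the replicate block, lower calls against E9.5 were 17 in d4c3, 17 in d4c5, 17 in d4c7, 17 in females and 16 in males, and the pairing changed no Hox count. Over all 10856 genes the block gave 1188, 1656, 1619, 1925 and 1996 lower calls in these groups. Same-numbered libraries deviated together in all 3 pairs of culture groups (correlation 0.116 to 0.455) and in 0 of the other 12 group pairs (−0.04 to 0.03). In d4c7 minus d4c3 the block gave 0 Hox calls, and over all genes 206 higher and 152 lower calls, against 181 and 117 without it. Depth limits members under about 1 RPM, where a value rests on 3 reads or fewer.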
